A study of Mus musculus with 6 samples.

Results

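DNA replication copies each chromosome once per cell cycle. Origins are licensed in G1, when the origin recognition complex with Cdc6 and Cdt1 loads the Mcm helicase, and they fire in S phase, when Cdc45 and the Gins complex activate that helicase. Polymerases, the sliding clamp Pcna and its Rfc loader, the single-strand binding protein RPA, the flap nuclease Fen1 and DNA ligase 1 then build the new strands from deoxynucleotides (dNTPs). Ribonucleotide reductase (Rrm1, Rrm2), thymidylate synthase (Tyms), thymidine kinase (Tk1) and the pyrophosphatases Dut and Dctpp1 supply the dNTP pool and keep it clean. Brequinar (BRQ) inhibits dihydroorotate dehydrogenase, an enzyme of pyrimidine synthesis, which feeds the same pool. In marrow, dividing progenitors such as granulocyte-monocyte progenitors (GMPs) carry these transcripts, and neutrophils lose them as they mature and leave the cell cycle.

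The 44 genes described here form a DNA replication and dNTP supply module and were chosen by symbol: 10 for origin licensing, 6 for helicase activation, 6 for the clamp and its loader, 9 for the polymerases and primase, 3 for RPA, 2 for Okazaki fragment maturation, 6 for dNTP supply, and Uhrf1 and Slbp for S phase chromatin and histone mRNA. All 44 were found among the 32285 genes of the tables. They were measured by droplet single-cell RNA-Seq of c-Kit-enriched bone marrow from 9 BALB/c mice, 10 weeks old at harvest. NTB mice (n = 3) had no tumor and no treatment. Vehicle mice (n = 3) bore 4T1, a BALB/c mammary carcinoma line, and were injected intraperitoneally with DPBS every day for 2 weeks from the time tumors could be measured. BRQ mice (n = 3) bore 4T1 and received brequinar at 10 mg/kg by the same route and schedule. Tumor and injections both separate NTB mice from the others, so their parts cannot be told apart. Each of 3 pools held 1 mouse of each group, marked by an antibody hashtag, and replicate numbers are pool numbers.

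The pools held 13750, 11441 and 14297 barcodes with a median of 7445 to 7996.5 gene UMIs, and 129 barcode sequences occurred in more than 1 pool. Hashtag background was high: the median count of a hashtag in cells called for it was 1.91 to 3.30 times that in the other singlets, and 33.1% to 52.2% of barcodes got no call. After filtering, 4010 to 6051 singlets per pool remained. GMPs, defined by their Ms4a3 level, counted 88, 135 and 177 cells in NTB mice, in the order of pools 1, 2 and 3 used throughout, 1017, 95 and 289 cells in vehicle mice and 806, 656 and 653 cells in BRQ mice. Their median depth per mouse was 10828.5 to 11581 UMIs (NTB), 14737 to 17966 UMIs (vehicle) and 12168.5 to 15795 UMIs (BRQ), so depth moved with the groups and its part in the results below was not tested beyond the thinned counts given there. By description, 8 of 8 GMP markers, Ms4a3 itself among them, were higher in the GMPs than in other cells, as were 12 of 12 in the HSC/MPP-like cells (stem cells and multipotent progenitors) and 14 of 14 in the neutrophil-like cells. The same markers named the clusters, so these counts are no independent check of the names.

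Promoters of the module were searched for words bound by E2F, the factor family that drives genes at the G1 to S transition. RefSeq promoters (GRCm38.p6) matched 37 of the 44 genes by symbol, all but Gins1, Gins2, Gins4, Mcm4, Pole, Prim2 and Rfc2. The words TTTCCCGC, TTTCGCGC, TTTGCCGC and TTTGGCGC were looked for on both strands in the 250 bases before each start, and 9 of the 37 genes held at least 1, against 2.16% of the 27025 genes with a promoter in the table. The CCAAT box, read on both strands, was present in 24 of the 37 and in 37.5% of all genes. The GC box (GGGCGG on either strand) was present in 27 of the 37 and in 35.4% of all genes. The part of base composition in these shares was not tested. The 4 promoters below, each the 200 bases before the gene's 1 RefSeq start in the table, were chosen with the results known: Mcm6 and Cdc6 were among the genes lowest in GMPs rich in mitotic transcripts, and Rrm2 and Pcna were called between groups. The annotation used for gene positions has other starts. It begins Cdc6 at chr11:98907801, so the window of Cdc6 lies within that gene. The windows of Pcna and Rrm2 run into genes that start there at 132253314 and 24708241. Capitals mark E2F words and CCAAT boxes (ATTGG is the box on the other strand).
Mcm6 (chr1:128359706-128359905, minus strand): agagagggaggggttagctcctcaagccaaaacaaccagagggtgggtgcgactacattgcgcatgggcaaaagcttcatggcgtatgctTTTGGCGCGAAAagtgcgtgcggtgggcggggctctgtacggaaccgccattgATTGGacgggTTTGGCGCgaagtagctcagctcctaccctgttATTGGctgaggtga
Cdc6 (chr11:98907951-98908150, plus strand): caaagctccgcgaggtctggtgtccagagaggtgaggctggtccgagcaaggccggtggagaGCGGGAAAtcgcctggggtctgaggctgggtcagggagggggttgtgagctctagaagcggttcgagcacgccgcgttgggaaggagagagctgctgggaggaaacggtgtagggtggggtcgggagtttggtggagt
Rrm2 (chr12:24708054-24708253, plus strand): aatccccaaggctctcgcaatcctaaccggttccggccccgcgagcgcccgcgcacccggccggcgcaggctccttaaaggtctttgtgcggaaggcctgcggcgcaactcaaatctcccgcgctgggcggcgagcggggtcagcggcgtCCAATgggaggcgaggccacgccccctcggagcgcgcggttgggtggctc
Pcna (chr2:132253181-132253380, minus strand): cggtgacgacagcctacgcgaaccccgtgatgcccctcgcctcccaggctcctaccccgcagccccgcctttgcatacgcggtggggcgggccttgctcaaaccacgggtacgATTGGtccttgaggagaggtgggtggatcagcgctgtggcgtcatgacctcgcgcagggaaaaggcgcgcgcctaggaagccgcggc
Mcm6 held 3 E2F words, of which 2 overlap, and 2 CCAAT boxes. Cdc6 held 1 E2F word and no CCAAT box. Rrm2 and Pcna each held 1 CCAAT box and none of the E2F words in this window.

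The summed level of the module differed between cell classes. It made up 0.548% ± 0.0262 of all UMIs in erythroid-like cells (SD, n = 6 mice with at least 20 cells), 0.424% ± 0.0262 in monocyte-like cells (n = 9), 0.404% ± 0.0188 in HSC/MPP-like cells (n = 9) and 0.354% ± 0.0258 in GMPs (n = 9). Cluster 5, led by Fcnb and histone genes and given no class name, stood at 0.368% ± 0.0319 (n = 9). Among the neutrophil-like clusters the level stepped down from 0.271% ± 0.0363 in cluster 7, led by Chil3, Ltf and Camp (n = 6), to 0.129% ± 0.0356 in cluster 4, led by Ltf and Olfm4 (n = 8), and to 0.0683% ± 0.00954 in cluster 1, with Il1b and Cxcr2 among its leading genes (n = 8). HSC/MPP-like and monocyte-like cells differed by less than the larger of their SDs, but with cells thinned to 2000 UMIs they stood at 0.385% and 0.428%, a gap wider than either SD of the unthinned levels. GMPs and cluster 5 also differed by less than the larger SD, whereas the steps between clusters 7, 4 and 1 exceeded the SDs. The level of cluster 1 amounts to 1.30 UMIs of the module per cell and to 18.6% of the level in GMPs. Mpo, Elane, Prtn3 and Ctsg, granule genes of GMPs that mature neutrophils no longer transcribe, stood in cluster 1 at 5.22% of their level in GMPs, and the part of free RNA in the module's level there was not tested further. The clusters were built without the 44 genes and the related lists named below, but from the same cells, so these differences are a description with no test. The mitosis list, 32 genes of spindle, kinetochore and cyclin B function, followed another order: it made up 0.668% of UMIs in cluster 7, 0.322% in GMPs and 0.0454% in cluster 1.

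**Figure D1:**
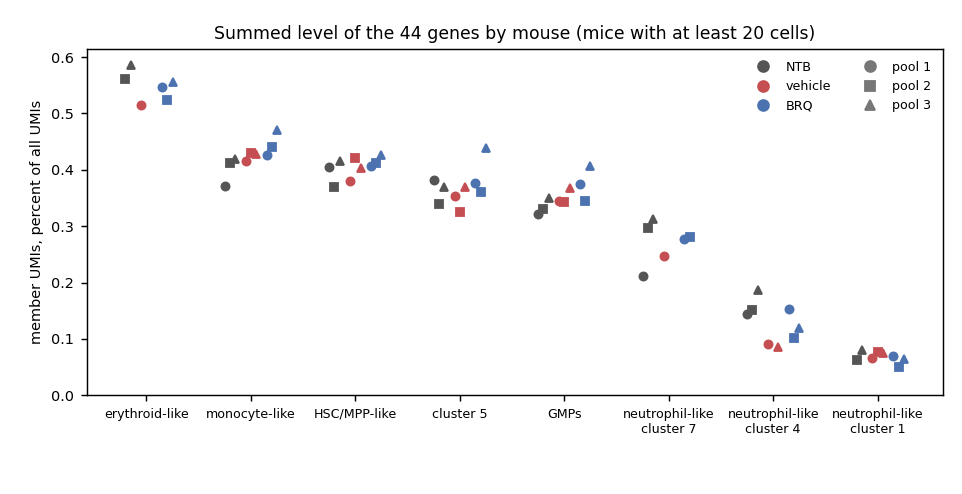
Summed UMIs of the 44 genes as percent of all UMIs (y axis, linear, from 0) in each mouse with at least 20 cells of a class (x axis); colors give the group and shapes the pool. Erythroid-like cells sit at the top, with a mean of 0.548%, and neutrophil-like cluster 1 at the bottom, with a mean of 0.0683%.

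Within GMPs the module separated from mitotic transcripts, and most of the licensing genes did so. GMPs with at least 5000 UMIs (n = 3779) were thinned to that depth and split by their UMIs of the mitosis list: 1015 cells with at least 22 were taken as mitosis-high and 1045 cells with at most 7 as mitosis-low, with 276 cells within 1 UMI of the upper limit. In mitosis-high cells, 21 of the 44 genes were lower in all 9 mice, where 3.67% of the 10331 genes tested in GMPs were, and 0 were higher in all 9. The log2 ratio of (CPM + 1), taken for each gene as the median over mice, had a median of -0.67 over the module and -0.01 over all genes tested. The mitosis-high cells were also deeper, with a median of 16250 against 12280 UMIs, and the part of depth before thinning was not tested. Each mouse gave at least 24 mitosis-high and 19 mitosis-low cells.

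Origin licensing genes held 9 of those 21. Cdc6, a loader of the helicase, had the lowest median ratio of the module, -2.26 on the log2 scale (range over mice -2.65 to -1.67), with pooled levels of 13.7 CPM in mitosis-high and 62.6 CPM in mitosis-low cells. Mcm6, a helicase subunit, had a median ratio of -1.59, and Mcm2, Mcm3, Mcm4, Mcm5 and Mcm7 lay between -1.43 and -0.96. Orc1, a subunit of the origin recognition complex, was the licensing gene that was not lower in every mouse (higher in 2 of 9). Uhrf1, which guides DNA methylation to newly copied DNA, had a median ratio of -1.73 and Slbp, which binds the stem-loop of histone mRNAs, of -1.03. Pcna stood at -1.17 and Rpa2, an RPA subunit, at -1.32. The dNTP supply genes were spread out: Rrm2 and Dut were lower in all 9 mice, with median ratios of -0.53 and -0.59, whereas Rrm1, the large subunit of ribonucleotide reductase, stood at 0.03 and was higher in 5 of 9 mice. Lig1 and Fen1 were each higher in 1 of 9 mice. Of the related lists, 10 of 32 other replication genes, 5 of 17 G1/S control genes and 3 of 13 other dNTP genes were lower in all 9.

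**Figure D2:**
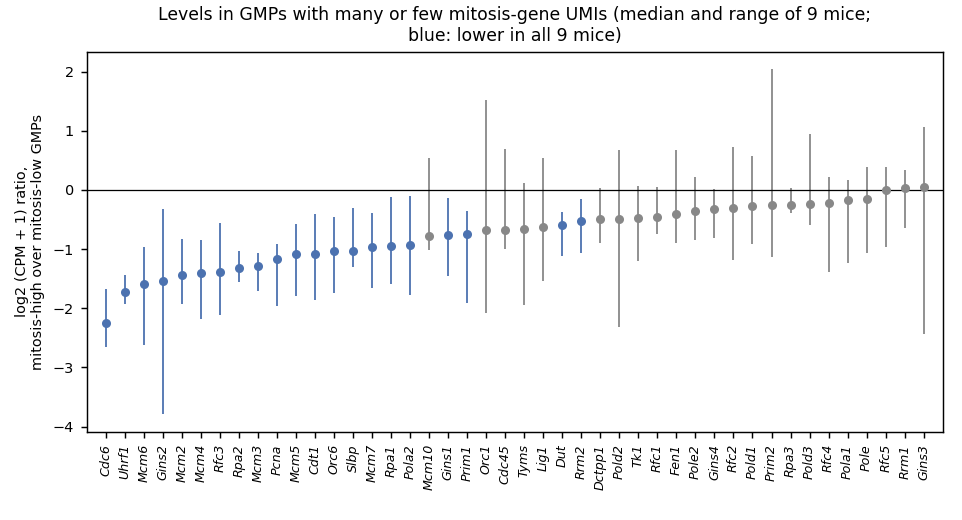
Log2 ratio of (CPM + 1) between mitosis-high and mitosis-low GMPs (y axis) for each of the 44 genes (x axis, in order of the median); points are medians and bars the range of 9 mice, blue where all 9 mice were lower. The blue points run from Cdc6 at -2.26 to Rrm2 at -0.53.

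Between groups, few genes of the module were called in GMPs. NTB mice had summed levels of 0.322%, 0.330% and 0.349% of UMIs, vehicle mice of 0.344%, 0.342% and 0.368%, and BRQ mice of 0.375%, 0.345% and 0.406%. The 3 groups overlapped when the pools are ignored, but within each pool the NTB mouse was the lowest and the BRQ mouse the highest. BRQ pool 3 was the highest mouse of all. All 44 genes passed the filter on low counts. For vehicle versus NTB 3 of 44 were called, all higher, where 11.3% of all genes tested were called (edgeR quasi-likelihood test on UMIs summed per mouse, Benjamini-Hochberg adjusted p under 0.05, here and below). For BRQ versus vehicle 3 of 44 were called, all lower, against 13.4% of all genes, and for BRQ versus NTB 2, 1 in each direction, against 6.01%. The median log2 fold change of the 44 genes was 0.07, -0.10 and -0.01 in this order, beside -0.01, 0.00 and 0.00 over all genes. The summed shares above use total UMIs, whereas the folds and CPM values use library sizes scaled by TMM, and a change of library sizes shifts all genes of a comparison together. Total UMIs as library sizes were a setting chosen after seeing the data. For BRQ versus vehicle they moved the median over all genes to 0.20 and that of the module from -0.10 to 0.10. The direction of the module in this comparison thus turned with the scaling. On that scale edgeR called 4 of 44, Mcm6, Tyms, Rfc2 and Pola2, all higher, where 21.7% of all genes were called and 19.2% were called higher. The 3 genes called lower by TMM then stood at -0.23, adjusted p = 0.0560 (Lig1), -0.17, adjusted p = 0.152 (Pcna) and -0.25, adjusted p = 0.218 (Pold2). For BRQ versus NTB it gave 4 calls, Dut, Rrm2, Tyms and Slbp, all higher, against 12.8% of all genes, and medians of 0.15 over the module and 0.16 over all genes. The CPM values of the compared groups did not overlap for 10, 9 and 7 of the 44 genes on the TMM scale, where 28.4%, 30.7% and 25.9% of all genes showed this. By TMM, neither calls nor gaps between groups were more frequent in the module than among all genes tested. The comparisons share groups, so their values are not independent of each other.

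**Figure D3:**
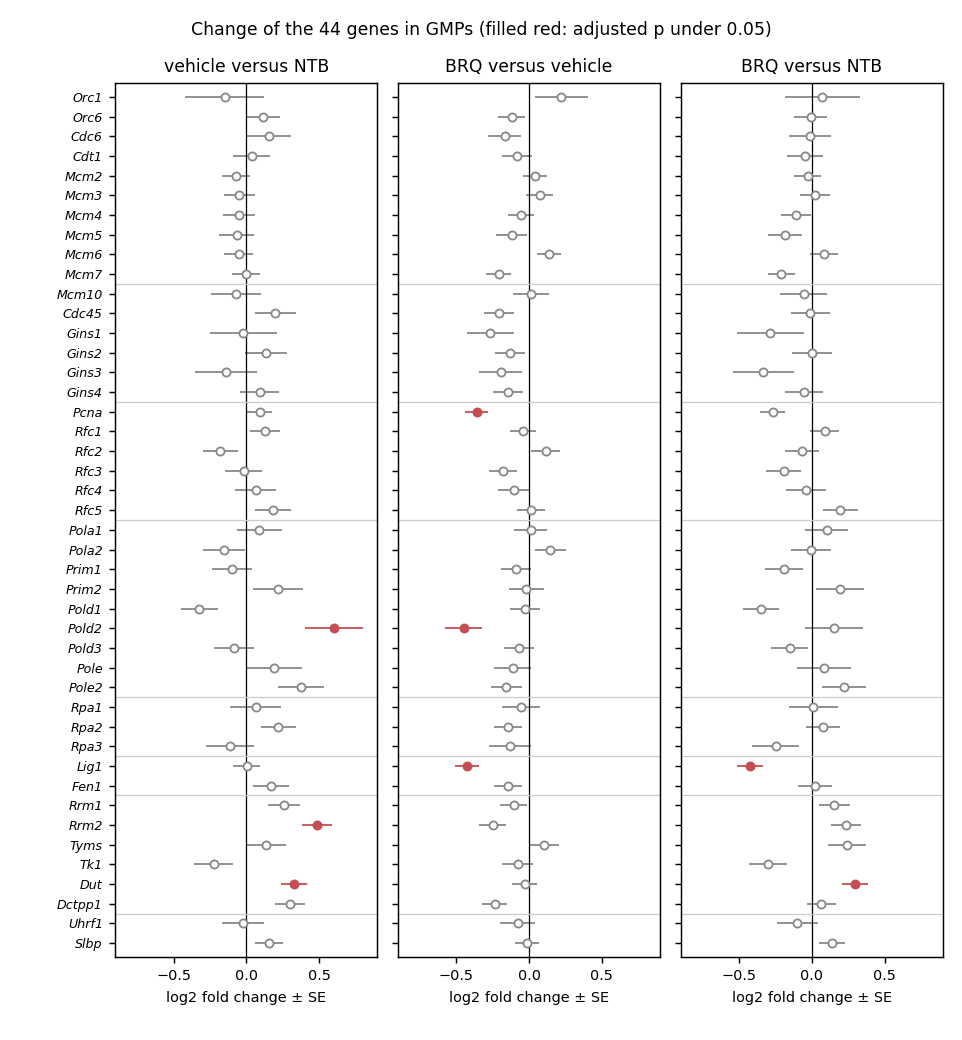
Log2 fold change ± SE in GMPs (x axis) for each of the 44 genes (y axis, ordered by role, gray lines between roles) in the 3 comparisons; filled red points passed an adjusted p of 0.05 in the edgeR test over 9 mice with TMM scaling. The called genes are Dut, Rrm2 and Pold2 in vehicle versus NTB, Pcna, Pold2 and Lig1 in BRQ versus vehicle, and Lig1 and Dut in BRQ versus NTB.

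The dNTP supply genes gave 2 of the 3 calls in vehicle versus NTB. Rrm2 (chr12:24708241-24714146, GRCm38, plus strand) encodes the small subunit of ribonucleotide reductase. Rrm2 stood at 141, 146 and 147 CPM in NTB, 199, 211 and 202 CPM in vehicle and 184, 142 and 185 CPM in BRQ mice. All 3 vehicle mice lay above all NTB mice, while BRQ pool 2 fell among the NTB values. Rrm2 rose in vehicle versus NTB with a log2 fold change of 0.49 ± 0.10 (SE, adjusted p = 0.00359). The call held in 21 of 23 alternative settings. Against vehicle, BRQ mice had a log2 fold change of -0.25 ± 0.09 (adjusted p = 0.0692), which passed the test with the pool as a block (-0.24).

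Dut (chr2:125247190-125258608, plus strand) encodes dUTPase, which removes dUTP and yields the precursor of dTTP. It stood at 459, 399.6 and 382 CPM in NTB, 519, 505 and 522 CPM in vehicle and 518, 476 and 522 CPM in BRQ mice. Each tumor-bearing mouse lay above each NTB mouse, and the vehicle and BRQ ranges overlapped. The log2 fold change of Dut was 0.33 ± 0.09 in vehicle versus NTB (adjusted p = 0.0184) and 0.30 ± 0.09 in BRQ versus NTB (adjusted p = 0.0456). Between BRQ and vehicle it was -0.03 ± 0.08 (adjusted p = 0.876). The call against NTB held in 12 of 23 alternative settings for BRQ mice and in 17 of 23 for vehicle mice.

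The other dNTP genes did not pass with TMM and the group alone, and each passed in some other setting. Dctpp1 (chr7:127256959-127260709, minus strand), a dCTP pyrophosphatase, stood at 114, 111 and 108 CPM in NTB, 152, 134 and 120.2 CPM in vehicle and 113, 118 and 116 CPM in BRQ mice. All vehicle mice exceeded all other mice, with a log2 fold change against NTB of 0.30 ± 0.10 (adjusted p = 0.0571). With the pool as a block Dctpp1 passed in vehicle versus NTB (0.29) and in BRQ versus vehicle (-0.23). Rrm1 (chr7:102441695-102469771, plus strand) stood at 94.8, 109 and 124 CPM in NTB, 118, 142 and 145 CPM in vehicle and 128, 115 and 129 CPM in BRQ mice, and each pair of groups overlapped. Rrm1 passed in vehicle versus NTB in GMP-like clusters (0.28). Tyms (chr5:30058202-30073617, minus strand), which makes dTMP, stood at 47.96, 49.6 and 46.2 CPM in NTB, 57.6, 47.6 and 48.5 CPM in vehicle and 65.1, 52.1 and 52.2 CPM in BRQ mice. The BRQ values of Tyms lay above the NTB values, with a log2 fold change of 0.24 ± 0.13 (adjusted p = 0.296). With total UMIs as library sizes Tyms passed against NTB (0.40) and against vehicle (0.30), and in GMP-like clusters against NTB (0.36). Tk1 (chr11:117815526-117826092, minus strand), the salvage kinase for thymidine, stood at 66.5, 43.3 and 65.95 CPM in NTB, 50.9, 42.6 and 51.8 CPM in vehicle and 47.8, 44.9 and 48.4 CPM in BRQ mice. Each pair of groups overlapped for Tk1 as well, which was called lower in BRQ versus NTB with the lower Ms4a3 limit (-0.28) and without NTB replicate 2. Over the 6 dNTP genes, the median log2 fold change was 0.28 in vehicle versus NTB, -0.09 in BRQ versus vehicle and 0.19 in BRQ versus NTB.

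Genes of strand joining, the clamp and polymerase delta gave the calls in BRQ versus vehicle on the TMM scale. Lig1 (chr7:13277283-13311433, plus strand) encodes DNA ligase 1, which seals Okazaki fragments. It stood at 162, 153 and 151 CPM in NTB, 158, 138 and 164 CPM in vehicle and 123, 114 and 109 CPM in BRQ mice. Every BRQ mouse lay below all 6 other mice, and the NTB and vehicle ranges overlapped. Lig1 fell by 0.43 on the log2 scale in BRQ versus vehicle (SE 0.08, adjusted p = 0.00119) and by 0.42 in BRQ versus NTB (SE 0.09, adjusted p = 0.00651). These calls held in 20 of 23 and 18 of 23 alternative settings. The log2 fold change of Lig1 ran from -0.52 to -0.23 against vehicle and from -0.48 to -0.17 against NTB in those settings. Between vehicle and NTB its log2 fold change was 0.00 ± 0.09 (adjusted p = 0.996). Fen1, the flap nuclease that acts before the ligase, had a log2 fold change of -0.15 ± 0.10 in BRQ versus vehicle (adjusted p = 0.359).

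Pcna (chr2:132249162-132253314, minus strand) encodes the clamp that tethers polymerases and binds Lig1 and Fen1. It stood at 215, 235 and 241 CPM in NTB, 239, 236 and 262 CPM in vehicle and 198, 194 and 183 CPM in BRQ mice. Again every BRQ mouse was below the 6 others. Pcna fell by 0.36 on the log2 scale in BRQ versus vehicle (SE 0.08, adjusted p = 0.00360), and the log2 fold change in BRQ versus NTB was -0.27 ± 0.09 (adjusted p = 0.0612), which passed with the pool as a block (-0.27). The call against vehicle held in 20 of 23 alternative settings. The 5 Rfc genes of the clamp loader gave no call in GMPs with TMM and the group alone, nor by DESeq2, and their log2 fold changes in BRQ versus vehicle ran from -0.18 for Rfc3 to 0.11 for Rfc2. Other settings called Rfc2 higher in BRQ versus vehicle with total UMIs (0.31) but lower in vehicle versus NTB in GMP-like clusters (-0.26), Rfc3 lower in BRQ versus vehicle with a hashtag ratio of at least 2 (-0.35), and Rfc5 higher in vehicle and in BRQ than in NTB mice in GMP-like clusters (0.36 and 0.36) and with an Ms4a3 limit of 2.5.

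Pold2 (chr11:5872180-5878292, minus strand) encodes an accessory subunit of DNA polymerase delta and had low counts. It stood at 11.99, 10.7 and 12.04 CPM in NTB, 18.1, 14.4 and 18.1 CPM in vehicle and 13.7, 11.7 and 12.98 CPM in BRQ mice. The 3 vehicle mice were the highest of the 9. The log2 fold change of Pold2 was 0.60 ± 0.20 in vehicle versus NTB (adjusted p = 0.0497) and -0.45 ± 0.13 in BRQ versus vehicle (adjusted p = 0.0198). The first of these calls lies at the threshold and held in 5 of 22 alternative settings, the other in 14 of 22. The other 8 polymerase and primase genes gave no call with TMM and the group alone, nor by DESeq2. Other settings called Pola2 higher in BRQ versus vehicle with total UMIs (0.35), Prim1 lower in BRQ versus NTB with the lower Ms4a3 limit (-0.37), and Pold1 lower in BRQ versus NTB with the pool as a block (-0.36) and in GMP-like clusters (-0.33). Pold1, the catalytic subunit of the same polymerase, stood at -0.32 ± 0.13 in vehicle versus NTB (adjusted p = 0.107) in GMPs and was called there in GMP-like clusters (-0.31).

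**Figure D4:**
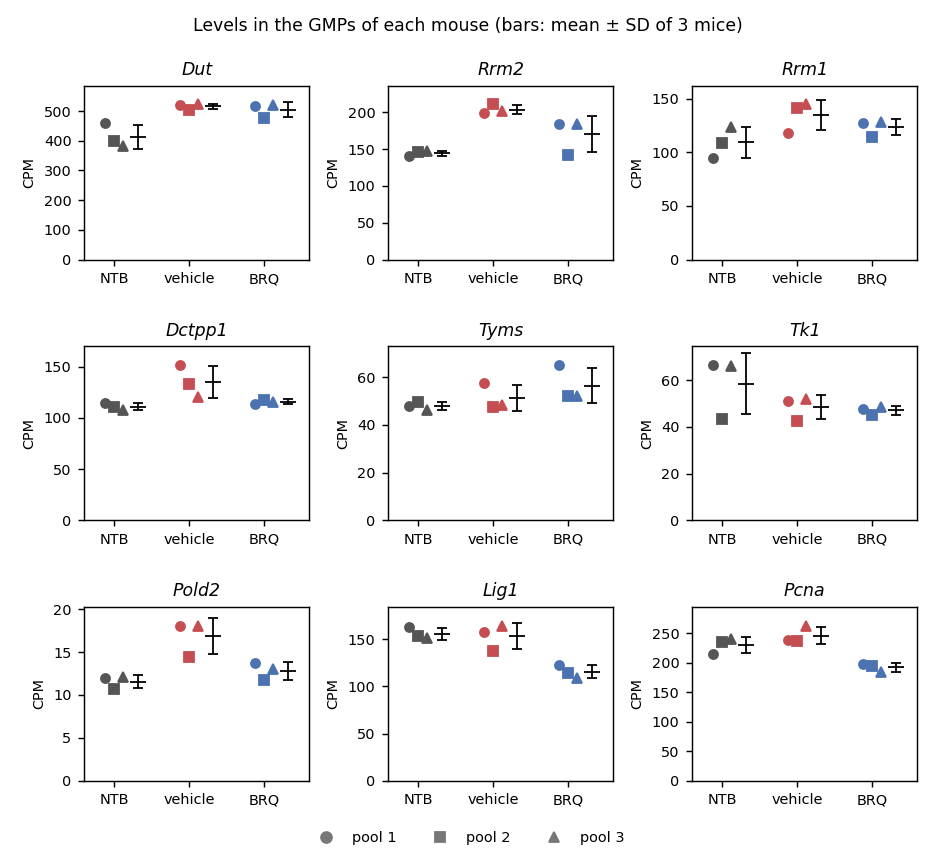
CPM by TMM library sizes in the GMPs of each mouse (y axes, linear, from 0) for the 6 dNTP supply genes and the other called genes; shapes give the pool and the black marks the mean ± SD of 3 mice per group. Lig1 and Pcna are lowest in the 3 BRQ mice, and Rrm2 and Dut are higher in the 3 vehicle than in the 3 NTB mice.

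The licensing, helicase activation, RPA and S phase chromatin genes, 21 in all, gave no call in GMPs by edgeR with TMM and the group alone. Other settings called Mcm6 higher in BRQ versus vehicle (0.33) and Slbp higher in BRQ versus NTB (0.30) with total UMIs, Rpa3 lower in BRQ versus NTB with the pool as a block (-0.26), Orc6 higher in vehicle versus NTB in GMP-like clusters (0.36), Cdc6 lower in BRQ versus vehicle without BRQ replicate 3, and Mcm7 as given below. Across the 10 licensing genes the log2 fold changes ran from -0.15 to 0.16 in vehicle versus NTB, from -0.21 to 0.22 in BRQ versus vehicle and from -0.21 to 0.09 in BRQ versus NTB. Mcm7, a helicase subunit and the lowest of them in BRQ versus vehicle, stood at 139.5, 119.8 and 142 CPM in NTB, 128, 135 and 140.2 CPM in vehicle and 123, 109 and 115 CPM in BRQ mice. All BRQ mice lay below all vehicle mice, with a log2 fold change of -0.21 ± 0.08 (adjusted p = 0.108) that passed with the pool as a block (-0.19). The 6 helicase activation genes had a median log2 fold change of -0.17 in BRQ versus vehicle. DESeq2 called 0 of the 21 as well. At an unadjusted p under 0.05, 0, 1 and 1 licensing genes passed in vehicle versus NTB, BRQ versus vehicle and BRQ versus NTB, and over the whole module 7, 6 and 7 of the 44 did, against 2, 2 and 3 called by DESeq2.

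The definition of a GMP, the fit and single mice moved these counts. With the pool as a block, BRQ versus vehicle went from 3 to 6 called genes, beside 20.4% of all genes, and BRQ versus NTB from 2 to 5, beside 11.8%. Among all cells of the GMP-like clusters (6196 cells), vehicle versus NTB gave 10 calls, 8 higher and 2 lower, beside 29.9% of 10901 genes, with Rrm2 at 0.78 and Dut at 0.53 on the log2 scale, and BRQ versus NTB gave 8, 6 higher and 2 lower, beside 18.9%. In those clusters BRQ versus vehicle gave Lig1 (-0.29), Pcna (-0.26) and Pold2 (-0.43), all lower, beside 13%. With an Ms4a3 limit of 2.5, 6, 3 and 8 genes were called in vehicle versus NTB, BRQ versus vehicle and BRQ versus NTB, beside 22.6%, 13% and 15.7% of all genes. The GMPs of the groups also differed in clusters: cluster 3 held 28.2% to 35.6% of the GMPs in NTB, 14.7% to 17.3% in vehicle and 6.28% to 18.7% in BRQ mice. Cluster 0 held 20.3% to 28.1% (NTB), 21.8% to 31.5% (vehicle) and 38.3% to 42.7% (BRQ), with all BRQ mice above all others, and cluster 2 held 21.5% to 31.8% (NTB), 36.97% to 47.8% (vehicle) and 29.2% to 35.4% (BRQ), with all vehicle mice above all others. With limits of 500 and 7500 on UMIs instead of detected genes, which drops the deeper GMPs and leaves 8 to 89 cells per mouse, 28 genes were tested and edgeR called 0 in each comparison, beside 0%, 0% and 0.0619% of all genes (2, 0 and 1 at an unadjusted p under 0.05). With each GMP thinned to 5000 UMIs, 2, 3 and 1 genes were called, beside 5.47%, 6.95% and 3.05% of all genes. With the cluster composition made equal in all mice, 2, 3 and 1 genes were called, beside 8.53%, 13.5% and 3.42%. Vehicle versus NTB gave 1 call without NTB replicate 2, NTB replicate 3 or vehicle replicate 1, beside 4.96% to 6.37% of all genes. BRQ versus vehicle gave 5 without BRQ replicate 3, beside 14.8%, and BRQ versus NTB gave 1 without NTB replicate 3, BRQ replicate 1, BRQ replicate 3 or any 1 vehicle mouse, beside 3.03% to 5.82%.

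The related lists gave 0 to 2 calls each per comparison in GMPs taken by Ms4a3, where 11.3%, 13.4% and 6.01% of all genes were called in vehicle versus NTB, BRQ versus vehicle and BRQ versus NTB. Of 32 other replication genes, 1 was called in vehicle versus NTB (Pole3, a histone-fold subunit of polymerase epsilon, 0.46), 2 in BRQ versus vehicle (Pole3, -0.38, and Gmnn, the inhibitor of Cdt1, -0.28) and 1 in BRQ versus NTB (Orc2, 0.63). Of 17 G1/S control genes tested, Cdk4, a kinase of cyclin D, rose in vehicle versus NTB (0.44). In the comparisons of BRQ with vehicle and with NTB, edgeR called 0 of the 17, with 4 and 2 at an unadjusted p under 0.05. Of 13 other dNTP genes, Mthfd2 (0.76), a mitochondrial enzyme of one-carbon metabolism, and Dtymk (0.33), which phosphorylates dTMP, rose in vehicle versus NTB, and Mthfd2 fell in BRQ versus vehicle (-0.38). Of the 32 mitosis genes, Ccnb2 was higher (0.28) and Cdca3 lower (-0.30) in BRQ versus vehicle. The other comparisons gave 0 mitosis calls, with 5 in vehicle versus NTB and 4 in BRQ versus NTB at an unadjusted p under 0.05. The counts of these lists changed with the cells taken. In GMP-like clusters, vehicle versus NTB gave 6 other replication genes (5 higher), 4 G1/S genes (3 higher) and 5 other dNTP genes (3 higher), and BRQ versus NTB gave 4, 4 and 3 (2, 2 and 3 higher), where 29.9% and 18.9% of all genes were called. For the mitosis list, all cells of the GMP-like clusters gave 6 higher in vehicle versus NTB, 6 higher in BRQ versus NTB and 1 lower in BRQ versus vehicle. GMPs of cluster 0 gave 3, 3 and 5 in vehicle versus NTB, BRQ versus vehicle and BRQ versus NTB, all lower, beside 3.22%, 10.5% and 1.94% of all genes. GMPs of cluster 2 gave 0, 8 and 4, all higher, beside 2.69%, 8.48% and 1.65%, and equal clusters 0, 4 and 0, all higher, beside the shares given above.

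In HSC/MPP-like cells (23 to 331 per mouse) calls were no more frequent in the module than among all genes tested. In vehicle versus NTB, edgeR called 1 of 44 genes, higher, against 14.2% of all 10236 genes. For BRQ versus NTB 3 were called, all higher, against 18.4%. Of the 6 dNTP genes, 1 was called in vehicle versus NTB and 2 in BRQ versus NTB. Between BRQ and vehicle edgeR called 0 against 0.0977% of all genes, with 2 at an unadjusted p under 0.05 and 0 by DESeq2. Dut stood at 335, 293 and 295 CPM in NTB, 359, 388 and 362 CPM in vehicle and 390.3, 395 and 393 CPM in BRQ mice. The 3 groups did not overlap, with NTB the lowest and BRQ the highest. Dut rose in BRQ versus NTB by 0.36 ± 0.09 on the log2 scale (adjusted p = 0.00495).

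Rrm2 in these cells stood at 76.8, 50.9 and 75.1 CPM in NTB, 79.5, 101 and 94.1 CPM in vehicle and 96.3, 76.4 and 109 CPM in BRQ mice. Pool 2 was the lowest pool in NTB and in BRQ mice, and the BRQ and NTB ranges overlapped. The log2 fold change of Rrm2 in BRQ versus NTB was 0.48 ± 0.14 (adjusted p = 0.0207). Rfc5, a clamp loader subunit, stood at 62.1, 57.3 and 51.02 CPM in NTB, 65.1, 80.4 and 70.1 CPM in vehicle and 74.1, 74.02 and 67.6 CPM in BRQ mice. All BRQ values of Rfc5 exceeded all NTB values, with a log2 fold change of 0.37 ± 0.12 (adjusted p = 0.0305). Dctpp1 stood at 211, 142 and 147 CPM in NTB, 228, 204 and 208 CPM in vehicle and 209, 205 and 193 CPM in BRQ mice. NTB pool 1 fell among the tumor-bearing mice, and Dctpp1 was called in vehicle versus NTB (0.41 ± 0.12, adjusted p = 0.0214). Over 18 alternative settings these calls held in 15 for Dut, 12 for Dctpp1, 10 for Rrm2 and 9 for Rfc5. The log2 fold change of Rrm2 ran from 0.01 to 0.61 in those settings. For vehicle versus NTB edgeR called 0 without NTB replicate 2 and 0 without NTB replicate 3 (8 and 5 at an unadjusted p under 0.05), and 2 without NTB replicate 1, beside 11%, 7.11% and 11.4% of all genes. BRQ versus NTB gave 1 without BRQ replicate 1, beside 15.9%. DESeq2 called 0 in vehicle versus NTB, beside 8.24%, and 1 in BRQ versus NTB, beside 9.27%.

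A pair of clusters makes up the HSC/MPP-like class, and their shares moved with the groups. Cluster 9, led by Dntt, Flt3 and Cd34, held 33.2% to 40.2% of these cells in NTB, 47.6% to 60.9% in vehicle and 53.1% to 61.6% in BRQ mice, and cluster 10, led by Hlf, held the rest. In cluster 9 alone BRQ versus NTB gave 1 call, Lig1, lower (-0.59), and vehicle versus NTB gave Lig1, lower (-0.49), and Dctpp1, higher (0.43), beside 4.59% and 4.95% of all genes. In cluster 10 alone edgeR called 0 in each comparison, with 2, 2 and 4 at an unadjusted p under 0.05. With the pool as a block, vehicle versus NTB gave 2 calls, beside 17.1% of all genes, and BRQ versus NTB 5, beside 22.2%, among them Lig1, lower (-0.27). In the mitosis list 16 of 32 genes were higher in BRQ versus NTB, among them Ttk (0.69), Ccnb1 (0.61) and Birc5 (0.60), and 5 in vehicle versus NTB, with Ube2c at 0.65, beside the 18.4% and 14.2% of all genes. In this order the counts were 19 and 4 with a hashtag ratio of at least 2 (beside 18% and 15.5%), 10 and 2 with clusters from all variable genes (beside 6.14% and 1.83%), 2 and 0 in cluster 9 alone (beside 4.59% and 4.95%) and 1 and 0 in cluster 10 alone (beside 0.586% and 0.398%). Vehicle pool 2 had 14 cells in cluster 9, 9 in cluster 10 and 11 with clusters from all variable genes. It was left out of those fits, which leaves 2 vehicle mice. Fewer cells enter in single clusters, so the shift between clusters and a change within cells cannot be told apart.

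G1/S control and other dNTP genes were also called in the HSC/MPP-like class as a whole. Most of these calls were lost in its single clusters and with clusters from all variable genes. Fewer cells enter in these settings, and whether the folds of the lost genes stayed as large is not reported here. Of 18 G1/S genes, 6 were called in vehicle versus NTB and 6 in BRQ versus NTB, beside 14.2% and 18.4% of all genes. Cyclin D1 (Ccnd1, -2.34 and -2.47) and cyclin D2 (Ccnd2, -0.73 and -0.62) were lower in both. In contrast, cyclin E1 (Ccne1, 1.09 and 1.49), Cdk4 (0.37 and 0.30) and Tfdp1, a partner of E2F (0.38 and 0.41), were higher in both. E2f7, an E2F repressor, was lower in vehicle versus NTB (-0.85) and Ccna2, cyclin A2, higher in BRQ versus NTB (0.39). Of 12 other dNTP genes tested, Mthfd2 (0.99 and 0.76), Shmt2 (0.52 and 0.54) and Dtymk (0.40 and 0.43) were higher in both comparisons and Samhd1, which degrades dNTPs, lower (-0.62 and -0.45). In cluster 9 alone, cluster 10 alone and clusters from all variable genes, vehicle versus NTB gave 2, 1 and 2 G1/S calls and BRQ versus NTB 2, 1 and 2, all lower, so none of the rises of Ccne1, Cdk4 and Tfdp1 was called there. The other dNTP list gave 1, 0 and 0 calls in vehicle versus NTB and 0, 0 and 1 in BRQ versus NTB. With a hashtag ratio of at least 2, 4 and 5 G1/S genes were called in vehicle versus NTB and BRQ versus NTB, 2 higher in each. The other dNTP list gave 3 and 3 calls with that ratio, all higher. Shares of all genes called in these settings are given above. Both comparisons use the same 3 NTB mice.

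Monocyte-like cells (38 to 333 per mouse) gave no called gene of the module by edgeR. The vehicle versus NTB comparison gave 0 of 44 called against 2.52% of all 9321 genes, with 5 at an unadjusted p under 0.05 and 1 by DESeq2 (Dut, 0.36). Between BRQ and vehicle 0 were called against 5.03%, and between BRQ and NTB 0 against 2.82%, with 2 and 2 at an unadjusted p under 0.05 and 0 and 0 by DESeq2. As a share of all UMIs the module stood at 0.371%, 0.412% and 0.419% (NTB), 0.416%, 0.430% and 0.428% (vehicle) and 0.426%, 0.440% and 0.470% (BRQ), and within each pool the order was again NTB, vehicle and BRQ from low to high. The median log2 fold changes of the module were 0.05, -0.06 and 0.04, and with total UMIs as library sizes the second turned to 0.06, beside 0.12 over all genes. With the pool as a block, Dut (0.38) and Cdc6 (0.56) were higher in vehicle versus NTB, beside 4.5% of all genes. Of the G1/S genes, Ccnd1 (-2.09 and -2.66) and Ccnd2 (-0.65 and -0.64) were lower in vehicle and in BRQ than in NTB mice.

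In neutrophil-like cells the module was lower in vehicle than in NTB mice, and so was the share of cluster 7. NTB mice had summed levels of 0.180%, 0.225% and 0.259% of UMIs, vehicle mice of 0.127%, 0.131% and 0.102%, and BRQ mice of 0.182%, 0.151% and 0.105%. All vehicle mice lay below all NTB mice, and BRQ pool 1 slightly exceeded the lowest NTB value. After the filter 41 genes remained (Orc1, Gins1 and Pold2 did not pass). For vehicle versus NTB 27 of 41 were called, all lower, where 32.8% of the 7700 genes tested were called and 14.9% were called lower. For BRQ versus NTB 12 of 41 were called, all lower, against 18.9% called and 5.25% called lower. Between BRQ and vehicle edgeR called 0 against 0.13% of all genes, with 5 at an unadjusted p under 0.05 and 0 by DESeq2. The median log2 fold changes of the 41 genes were -0.97 in vehicle versus NTB, -0.67 in BRQ versus NTB and 0.37 in BRQ versus vehicle, beside -0.06, -0.04 and 0.00 over all genes. Fewer dividing cells and less RNA of these genes per cell cannot be told apart in such sums.

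Every role had a gene among the 27. All 3 RPA genes, 5 of 6 clamp and loader genes, 4 of 6 dNTP genes, 5 of 9 licensing genes, 2 of 5 helicase activation genes and 4 of 8 polymerase and primase genes were lower in vehicle versus NTB, as were Lig1, Fen1, Uhrf1 and Slbp. Of the dNTP genes, 1 that was not called stood higher in vehicle than in NTB mice, with a log2 fold change of 0.51. Tk1 stood at 54.4, 77.1 and 71.1 CPM in NTB, 36.4, 25.5 and 11.2 CPM in vehicle and 39.1, 50.04 and 14.3 CPM in BRQ mice. The NTB mice were the 3 highest, and vehicle and BRQ pool 3 were the lowest pair. Tk1 fell by 1.51 on the log2 scale in vehicle versus NTB (SE 0.41, adjusted p = 0.0115).

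Rfc3, a clamp loader subunit, stood at 26.2, 24.6 and 33.2 CPM in NTB, 12.9, 10.9 and 7.44 CPM in vehicle and 23.95, 17.5 and 7.85 CPM in BRQ mice, with a log2 fold change of -1.47 in vehicle versus NTB. Rfc5, another subunit, stood at 40.3, 36.3 and 33.6 CPM in NTB, 15.4, 21.9 and 7.44 CPM in vehicle and 36.2, 16.7 and 16.4 CPM in BRQ mice (-1.46). For both, the vehicle mice lay below the NTB mice, and BRQ pool 1 came just below the NTB range for Rfc3 and within it for Rfc5. Rpa3, a small RPA subunit, stood at 76.5, 114 and 72.7 CPM in NTB, 37.2, 47.4 and 23.2 CPM in vehicle and 71.3, 82.6 and 18.6 CPM in BRQ mice (-1.41), with BRQ pool 2 within the NTB range. Pole, the catalytic subunit of polymerase epsilon, stood at 8.05, 17.2 and 14.6 CPM in NTB, 6.47, 10.9 and 2.79 CPM in vehicle and 8.18, 9.17 and 8.57 CPM in BRQ mice (-1.41), and vehicle pool 2 exceeded NTB pool 1. The adjusted p of these 4 genes in vehicle versus NTB ran from 0.00850 to 0.0208. The neutrophil-like sums held 1299806, 252492 and 1027616 UMIs in vehicle mice and 556067 UMIs in NTB pool 1. The low CPM values here and in the next paragraph thus rest on few UMIs, and the order of single mice is uncertain there.

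Among the 12 genes called in BRQ versus NTB, the largest falls were those of Uhrf1, Mcm6, Pcna, Mcm10 and Rrm2. Uhrf1 stood at 70.5, 56.96 and 76.1 CPM in NTB, 30.7, 47.4 and 20.5 CPM in vehicle and 35.1, 27.5 and 20.7 CPM in BRQ mice, with a log2 fold change of -1.28 ± 0.24 (adjusted p = 0.00205). Mcm6 stood at 56.4, 60.9 and 61.04 CPM in NTB, 28.3, 36.4 and 16.7 CPM in vehicle and 29.8, 38.4 and 14.99 CPM in BRQ mice (-1.12 ± 0.27, adjusted p = 0.00960). For both, each NTB mouse exceeded each tumor-bearing mouse. Pcna stood at 163, 212 and 218 CPM in NTB, 124, 120.2 and 67.9 CPM in vehicle and 132, 97.6 and 81.4 CPM in BRQ mice (-0.95 ± 0.23, adjusted p = 0.0108). Mcm10, a factor of helicase activation, stood at 20.1, 23.1 and 25.4 CPM in NTB, 12.9, 10.9 and 16.7 CPM in vehicle and 14.6, 14.2 and 9.995 CPM in BRQ mice (-0.87 ± 0.24, adjusted p = 0.0211). Rrm2 stood at 167, 176 and 195 CPM in NTB, 76.8, 72.9 and 59.5 CPM in vehicle and 147, 98.4 and 52.1 CPM in BRQ mice (-0.86 ± 0.27, adjusted p = 0.0358). In these 3 genes as well, the NTB mice were the 3 highest. The call of Rrm2 held in 10 of 18 alternative settings. With 1 mouse left out it held in 4 of 9 fits, at log2 fold changes of -1.27 to -0.55. The calls of Uhrf1, Mcm6, Pcna and Mcm10 held in 16 of 17, 15 of 17, 15 of 18 and 10 of 17 settings.

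The makeup of the class moved with these values. Cluster 1 held 6.36% to 12.05% of the neutrophil-like cells in NTB, 74.1% to 90.7% in vehicle and 53.8% to 79.7% in BRQ mice. Cluster 7 held 41.6% to 48.00% of the cells in NTB, 2.88% to 10.7% in vehicle and 2.63% to 17.1% in BRQ mice. Of the module's UMIs in this class, cluster 7 gave 68.4% to 71.5% in NTB mice, 26.3% to 57.9% in vehicle mice and 25.6% to 64.8% in BRQ mice, and cluster 1 gave 0.610% to 0.807% (NTB), 20.5% to 53.9% (vehicle) and 8.69% to 36.5% (BRQ), at about 1 UMI per cell as given above. Median depth per mouse was 5313.5 to 6301 UMIs (NTB), 1536 to 1800 UMIs (vehicle) and 2547.5 to 3021 UMIs (BRQ). Of the 32 mitosis genes, 31 were called lower in vehicle versus NTB and 3 in BRQ versus NTB.

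Within single clusters the values were mixed. In cluster 4 the summed level was 0.145%, 0.151% and 0.187% in NTB, 0.0901% and 0.0858% in vehicle pools 1 and 3 and 0.154%, 0.102% and 0.120% in BRQ mice (vehicle pool 2 had fewer than 20 cells and was left out). Both vehicle values lay below the 6 others. These 2 vehicle mice had 61 and 29 cells in cluster 4, with 398432 and 177154 UMIs over all genes. Few UMIs per gene of the module thus enter on the vehicle side. In cluster 4 alone 5 of 29 genes tested were called in vehicle versus NTB, all lower, where 2.07% of all 4964 genes were called and 0.363% were called lower: Mcm3 (-1.67), Mcm6 (-1.37), Mcm5 (-1.29), Dut (-1.24) and Pcna (-1.04). The comparison of BRQ with NTB gave 6 calls there, all lower, against 4.39% called and 1.23% called lower. In cluster 4 edgeR called 0 of 31 mitosis genes in vehicle versus NTB, with a median log2 fold change of 0.00, and 4 in BRQ versus NTB, all higher, with a median of 0.29. In cluster 1 alone, where NTB pool 1 had too few cells, 11 genes were tested. In that cluster edgeR called 0 in vehicle versus NTB and 0 in BRQ versus NTB (0 and 0 at an unadjusted p under 0.05), and Rfc2 was higher in BRQ versus vehicle (0.95). In cluster 7 the summed level was 0.211%, 0.297% and 0.312% in NTB mice, 0.248% in vehicle pool 1 and 0.278% and 0.281% in BRQ pools 1 and 2. The tumor-bearing values lay within the NTB range, and no fit was made with 1 vehicle mouse.

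**Figure D5:**
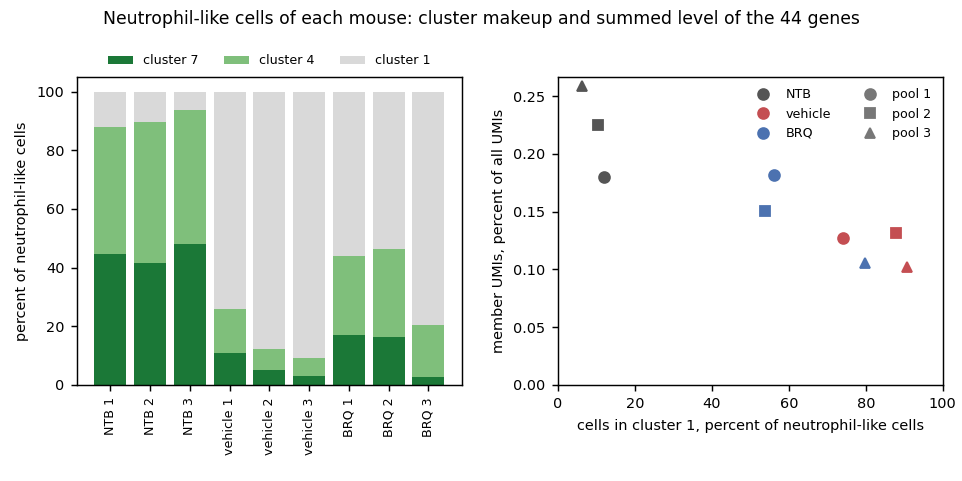
Left, percent of each mouse's neutrophil-like cells in clusters 7, 4 and 1 (stacked bars, y axis); right, summed UMIs of the 44 genes as percent of all UMIs (y axis) against the percent of cells in cluster 1 (x axis), 1 point per mouse. The NTB mice have at most 12.05% of cells in cluster 1 and the vehicle mice at least 74.1%, and the summed level runs from 0.102% to 0.259%.

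The counts in neutrophil-like cells rested on few mice. Leaving out vehicle replicate 3 gave 8 called genes in vehicle versus NTB, and leaving out NTB replicate 3 gave 12, all lower, beside 4.61% and 8.11% of all genes called lower. For BRQ versus NTB the count was 1 without NTB replicate 3, 4 without NTB replicate 2, 7 without BRQ replicate 3 and 22 without BRQ replicate 1, all lower, beside 0.82%, 1.7%, 2.87% and 6.06% of all genes called lower. Between BRQ and vehicle 8 genes were called, all higher, without BRQ replicate 3, where 11.5% of all genes were called and 5.56% called higher. With the pool as a block BRQ versus NTB gave 24 calls, all lower, beside 10.7% of all genes called lower. DESeq2 called 6 there, all lower, beside 2.23%. With clusters built from all variable genes, the module included, vehicle versus NTB gave 11 calls, all lower, beside 6.65% of all genes called lower, and BRQ versus NTB 0 by edgeR (13 at an unadjusted p under 0.05).

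The changes in GMPs and in the other classes were compared within mice. For vehicle versus NTB, 18 of 41 genes differed between GMPs and neutrophil-like cells (limma on per-mouse differences of log2 CPM, adjusted p under 0.05), where 28.6% of 7460 genes did. In all 18, among them Dut, Rrm2, Pcna, Lig1 and Rfc5, the log2 fold change in GMPs was above that in neutrophil-like cells, by 0.70 to 1.85. For BRQ versus NTB limma called 0 of the 41 against 2.9% of all genes, and for BRQ versus vehicle 0 against 0%, with 10 and 5 at an unadjusted p under 0.05. Against HSC/MPP-like cells, monocyte-like cells and cluster 5 limma called 0% of all genes in each comparison, with 1 to 5 genes of the module at an unadjusted p under 0.05. The 2 sides of these comparisons share some cells: 8.90% to 37.5% of cluster 5 per mouse and at most 3.69% of the other classes were also GMPs. A difference between classes was thus shown for vehicle versus NTB in neutrophil-like cells, and for the other classes and comparisons it was not.

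Cluster 5 was fitted in the same way, a choice made after the clusters were seen (22 to 285 cells per mouse, 43 genes tested, Orc1 not). For vehicle versus NTB 1 gene was called, Tk1, lower (-0.40 ± 0.13, adjusted p = 0.0490), against 10.4% of all 7896 genes. For BRQ versus vehicle 1 was called, Lig1, lower, against 3.19%. For BRQ versus NTB 2 were called, Lig1, lower, and Dut, higher, against 5.47%. Of the cells of cluster 5, 8.90% to 37.5% per mouse were also GMPs by Ms4a3 (8.90% to 20.8% in NTB, 30.3% to 37.5% in vehicle and 26.9% to 33.7% in BRQ mice), so the class and the GMPs share cells. Lig1 stood at 250.1, 210.1 and 218 CPM in NTB, 229.5, 198 and 236 CPM in vehicle and 168, 173 and 174 CPM in BRQ mice. The BRQ mice were the 3 lowest, with a log2 fold change of -0.40 ± 0.11 against vehicle (adjusted p = 0.0344) and -0.38 ± 0.11 against NTB (adjusted p = 0.0307). Dut stood at 421, 332 and 319 CPM in NTB, 429, 383 and 445 CPM in vehicle and 491, 416 and 522 CPM in BRQ mice, and NTB pool 1 overlapped the BRQ range (0.44 ± 0.11 in BRQ versus NTB, adjusted p = 0.0179). Without the shared cells, a setting chosen after seeing the data that leaves out vehicle pool 2 with 15 cells remaining, Lig1 was lower in BRQ than in vehicle mice (-0.59) and than in NTB mice (-0.44), Dut was higher in BRQ versus NTB (0.44), and 1, 1 and 3 genes were called in vehicle versus NTB, BRQ versus vehicle and BRQ versus NTB, beside 5.01%, 1.24% and 4.1% of all genes. In vehicle versus NTB the call was then Dctpp1, higher (0.63), and Tk1 was not called (-0.34, adjusted p = 0.213). Tk1 stood at 135, 113 and 109 CPM in NTB, 90.2, 103 and 76.9 CPM in vehicle and 92.5, 92.5 and 86.6 CPM in BRQ mice, with the NTB mice the 3 highest. With the pool as a block, 3 and 5 genes were called in BRQ versus vehicle and BRQ versus NTB, beside 5.29% and 8.95% of all genes. With total UMIs as library sizes edgeR called 0 in BRQ versus vehicle, with Lig1 at -0.23, adjusted p = 0.275, and 3 in BRQ versus NTB, Dut, Fen1 and Rfc5, all higher, beside 9%. Leaving out 1 mouse gave 0 to 3 calls, beside 1.09% to 11.1% of all genes. Tk1 was called in 5 of 15 alternative settings, Lig1 in 7 of 15 against vehicle and Dut in 11 of 15.

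Erythroid-like cells, in which the summed level was the highest of the classes described above, were not tested, since 1 vehicle mouse had 20 cells or more. Their summed level was 0.560% and 0.587% in NTB pools 2 and 3, 0.515% in vehicle pool 1 and 0.547%, 0.523% and 0.557% in BRQ mice.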

How the data were processed

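The authors deposited UMI counts per gene and hashtag for each barcode of 3 pools, made with Cell Ranger 6.0.0 on mm10 per the submitters' processing notes, which also name Seurat. From these counts, singlets were assigned with HTODemux (Seurat 5.3.0, quantile 0.99), and cells with 500 to 7500 detected genes (limits the study words in transcripts) and under 15% mitochondrial UMIs were kept. HTODemux doublets were dropped, Scrublet was an alternative, and doublets within 1 mouse cannot be seen by hashtags. GMPs had a natural log of (1 + Ms4a3 UMIs per 10000) above 3. The study set its limit of 3 on SCTransform values, scaled and with cell cycle scores regressed out, a scale that was not rebuilt here, so these GMPs need not be the cells the study selected. The other classes came from Leiden clusters (scanpy 1.11.5, 2000 variable genes, 30 components, 20 neighbors, resolution 0.8), built without the module and the related lists; replication-dependent histone genes stayed in and lead cluster 5. UMIs were summed per mouse and class (at least 20 cells, a floor not applied to the alternatives in GMPs, where limits on UMIs left 8 to 89 cells and cluster 0 left 18 to 323 per mouse), filtered with filterByExpr, scaled by TMM and tested with edgeR 4.0.16 on the group alone. Differences between classes used limma 3.58.1, and DESeq2 1.42.0 was an alternative. CPM values use the TMM library sizes. P-values are two-sided and adjusted by Benjamini-Hochberg over all genes tested.

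Genes named were those called, all dNTP genes, and, per comparison, up to 5 called genes with the largest changes in each other class and each related list; others named were chosen after their values were seen. The members and lists were chosen with earlier results of these data known. The fits were tested on simulated counts with known changes in vehicle versus NTB. Changes of 0.5 on the log2 scale were recovered for 33.3% of genes in GMPs and 42.4% in HSC/MPP-like cells. The share was 34.8% in monocyte-like cells, 1.52% in neutrophil-like cells and 28.8% in cluster 5. Changes of 1 were recovered for 65.7% in GMPs and 46.3% in neutrophil-like cells. A gene that was not called may thus have changed by such amounts. Each pool took 1 mouse of each group per the labels, so the pool number pairs mice. The median correlation of deviations from group means, between mice of 1 pool and of different pools, was 0.0881 and -0.0456 in GMPs, 0.0440 and -0.0236 in HSC/MPP-like cells, 0.0924 and -0.0298 in monocyte-like cells, 0.0676 and -0.0423 in neutrophil-like cells, 0.0496 and -0.0273 in cluster 5. Lists named here are the 44 genes by role, other replication, other dNTP, G1/S control and mitosis genes. Gene positions came from a GRCm38 annotation. The marker check of the monocyte-like cells is not reported here.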

Additional observations from a re-analysis of the deposited data

Results flagged for a closer look

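The change of the module from NTB to vehicle mice differed between GMPs and neutrophil-like cells for 18 of 41 genes by limma on per-mouse differences of log2 CPM, where 28.6% of the 7460 genes tested differed, and this difference between classes is why the result is listed. The cluster makeup and the depth of the neutrophil-like cells, given above, moved with the groups, and their part in the difference was not tested.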

How the results depend on the processing

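The counts of called genes moved with the settings, and so did the share of all genes called in the same fit, given in parentheses after each count. The cause was not tested, and cluster 5, single clusters, equal clusters, cluster 5 without GMPs and total UMIs without TMM were chosen after seeing the data. In GMPs, vehicle versus NTB gave 0 (0%) with limits on UMIs, 6 (22.6%) with an Ms4a3 limit of 2.5, 10 (29.9%) in GMP-like clusters and 0 (2.69%) in GMPs of cluster 2. BRQ versus vehicle gave 6 (20.4%) with the pool as a block and 0 (0%) with limits on UMIs. BRQ versus NTB gave 5 (11.8%) with the block, 8 (15.7%) with the lower Ms4a3 limit, 8 (18.9%) in GMP-like clusters, 0 (0.0619%) with limits on UMIs, 0 (1.65%) in cluster 2, 4 (12.8%) with total UMIs without TMM, and 1 (1.94% to 5.94%) each with DESeq2's size factors, thinned GMPs, cluster 0 and equal clusters. The median log2 fold change in vehicle versus NTB was -0.00499 with a hashtag ratio of at least 2, -0.042 in cluster 2 and 0.19 in cluster 0. In BRQ versus vehicle it was 0.017 with limits on UMIs, -0.023 in cluster 0, -0.038 with equal clusters and 0.10 without TMM, and in BRQ versus NTB 0.10, -0.19, 0.17 and 0.15 with limits on UMIs, in cluster 2, in cluster 0 and without TMM.

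In HSC/MPP-like cells, vehicle versus NTB gave 2 (17.1%) with the block, 3 (9.15%) without the filter on low counts, 0 (8.24%) by DESeq2, 2 (15.5%) with the hashtag ratio, 0 (1.83%) with clusters from all variable genes, 2 (4.95%) in cluster 9 and 0 (0.398%) in cluster 10, and BRQ versus NTB gave 5 (22.2%) with the block, 1 (9.27%) by DESeq2, 1 (6.14%) with all variable genes, 1 (4.59%) in cluster 9 and 0 (0.586%) in cluster 10. In monocyte-like cells, vehicle versus NTB gave 2 (4.5%) with the block and 1 (2.09% to 3.34%) each by DESeq2, without the filter and with all variable genes. In neutrophil-like cells, vehicle versus NTB gave 11 (18.9%) with all variable genes, 5 (2.07%) in cluster 4 and 0 (1.95%) in cluster 1, BRQ versus vehicle 2 (2.38%) without the filter and 1 (4.35%) in cluster 1, and BRQ versus NTB 24 (27.6%) with the block, 23 (12.4%) without the filter, 6 (13.8%) by DESeq2, 0 (9.07%) with all variable genes, 6 (4.39%) in cluster 4 and 0 (0.149%) in cluster 1. Rrm2 in BRQ versus NTB reversed in cluster 1 alone (0.27). In cluster 5, DESeq2 called 0 (4.34%) in vehicle versus NTB and 0 (1.94%) in BRQ versus vehicle, the block gave 3 (5.29%) in BRQ versus vehicle and 5 (8.95%) in BRQ versus NTB, the lack of a filter gave 1 (3.27%) in BRQ versus NTB, and total UMIs without TMM gave 0 (4.24%) in BRQ versus vehicle. The pool as a block changed no other count of calls by over 1.5 times. Thinned to 2000 UMIs, the summed level was 0.385% in HSC/MPP-like cells and 0.0550% in cluster 1.

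Leaving out 1 mouse at a time gave, for vehicle versus NTB, BRQ versus vehicle and BRQ versus NTB in this order, 1 to 4 (4.96% to 15.1%), 2 to 5 (6.98% to 14.8%) and 1 to 3 (2.09% to 7.78%) calls in GMPs, with medians of 0.03 to 0.08, -0.11 to -0.06 and -0.03 to 0.05. It gave 0 to 2 (7.11% to 14.8%), 0 to 0 (0.0396% to 0.109%) and 1 to 4 (9.05% to 19.1%) calls in HSC/MPP-like cells, 0 to 1 (0.402% to 3.09%), 0 to 0 (1.88% to 4.77%) and 0 to 0 (0.535% to 2.96%) in monocyte-like cells, 8 to 33 (15.8% to 40.1%), 0 to 8 (0% to 11.5%) and 1 to 22 (7.77% to 22.1%) in neutrophil-like cells and 0 to 3 (3.28% to 11.1%), 0 to 1 (1.09% to 3.54%) and 0 to 2 (2.11% to 5.64%) in cluster 5. A group left with 2 mice shares its spread with the others in these fits. The hashtag ratio in cluster 5 and a fit of cluster 7 alone left too few mice and were not run. P-values measure the spread between 9 mice, high hashtag background can place cells in a wrong mouse, and thin classes (23 HSC/MPP-like cells in 1 vehicle mouse) limit what could be detected.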

Other observations

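The rarer classes had too few mice with 20 cells for a comparison of groups. The summed level of the 44 genes was 0.495% ± 0.0947 (SD, n = 4 mice) of UMIs in basophil, mast and eosinophil-like cells, 0.466% ± 0.0669 (SD, n = 3 mice) in lymphoid progenitor-like cells, 0.227% ± 0.0530 (SD, n = 3 mice) in macrophage-like cells and 0.0550% ± 0.0143 (SD, n = 2 mice) in B-like cells. Their mitosis list stood at 0.362%, 0.457%, 0.248% and 0.0256%, in the same order.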
